A study of Chimonocalamus delicatus with 27 samples.

Results

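Defence genes of Chimonocalamus delicatus, a fragrant bamboo, were followed through the growth of the culm and across the parts of the plant. The members were all genes whose deposited description held the words chitinase, thaumatin, pathogenesis-related, glucan endo-1,3-beta-glucosidase or Bowman-Birk, except those that the tables assign to the AP2-EREBP transcription factors. This gave 266 of 55972 genes in the table of growth stages and 266 of 57356 genes in the table of plant parts, with 264 shared; the other 2 of each table bear MSTRG numbers, which do not carry over between the tables. In the growth stages they were 102 glucanases, 69 chitinases, 48 thaumatin-like genes, 37 other pathogenesis-related genes and 10 Bowman-Birk inhibitors, and the plant parts held 101, 70, 48, 37 and 10 of these. Symbols and descriptions in the tables come from like genes in other plants, so they name a likeness and not a tested function.

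Plants make small secreted proteins when fungi or bacteria attack, and these were named pathogenesis-related before their activities were known. Chitinases cut the chitin of fungal walls, and beta-1,3-glucanases cut both fungal glucan and callose, the plant's own glucan that plugs the channels between its cells. Thaumatin-like proteins can damage fungal membranes, PR1 proteins bind sterols, and Bowman-Birk proteins block serine proteases such as trypsin. Many genes of these families have no known part in defence, and some act on the plant's own cell wall, in fruit, flowers or growing stems.

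RNA was sequenced from 9 kinds of tissue with 3 libraries each, 27 in all. A growth stage set of 15 libraries held shoots and stems of 0.5, 1, 2 and 3 years, and a plant part set of 12 held rhizomes (the underground stems), leaves, branches and stems. The labels name the tissue and a code per library, with no infection or agent, and give no age for the stems of the second set, called part-set stems here. Nothing in them says whether replicates were separate plants, and the p-values may therefore reflect technical spread alone. The sets were tested apart. Summed expected counts ran from 8615092 to 12422327 in growth stage libraries and from 6257623 to 9010973 in plant part libraries. Levels are in FPKM, fragments scaled to transcript length and library size, listed for libraries 1, 2 and 3 of a group in that order. Log2 changes with their standard errors come from edgeR, and a gene was called at an adjusted p under 0.05.

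The libraries differed in ways that touch the results. Each pair of 0.5-year libraries differed by a chi-square of 1.76 to 2.45 per degree of freedom, a little above sampling noise, against 12.2 to 51.6 for pairs of the other stages. Rhizome libraries 2 and 3 differed most, at 99.9, and library 1 lay between them. Of 4161 genes that differed over 4-fold between rhizome libraries 2 and 3, library 1 was between the pair in 4134 (99.4%), at a median of 0.561 of the way from library 2 to library 3 (quartiles 0.492 and 0.624). In the other groups the share between was 47.1% to 86.7%. Shoot library 3 held 6 of 66 members (9.09%) over 4-fold above both other shoots, beside 2.89% of all genes, and 2-year library 2 held 5 of 46 (10.9%), beside 0.534%. How rhizome library 1 came to lie there was not tested, and calls in rhizomes are given with and without it. The tissue checks followed the labels for leaves, rhizomes and shoots: summed FPKM of 20 chlorophyll-binding genes was 28.2 to 51 in rhizomes, against 8424 to 10564 in leaves, and 43 genes of dividing cells summed to 232.8 to 755.8 in shoots and 76.7 to 104.8 in stems of all ages. The chlorophyll-binding genes summed to 820.9 to 3130.9 in part-set stems, against 38.6 to 255.4 in stems of the growth stages, so the 2 kinds of stem sample were not alike.

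Only some members of each family passed the filter on low values. The test took genes with 1 FPKM or more in at least 3 libraries of a set, which kept 121 members in the growth stages (65 glucanases, 25 chitinases, 17 thaumatin-like, 11 other pathogenesis-related and 3 Bowman-Birk) and 104 in the plant parts (54, 25, 11, 11 and 3). Of the 145 and 162 members left out, 61 and 64 had 0 counts in every library. A count of 0 still allows 3 counts, or 0.242 to 0.348 CPM in a growth stage library and 0.333 to 0.479 CPM in a plant part library, a limit for counting error alone. The highest value among the members left out was 29.6 FPKM, of the chitinase Cht5 (PH02Gene03197) in branch library 1. Within a family the RNA was concentrated in few genes: the first 3 members held 59.4% of the summed chitinase FPKM, 60% of the glucanase FPKM and 65.8% of the thaumatin-like FPKM in the growth stages. Members of one family can share reads, so the split between close copies is uncertain.

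**Figure D1:**
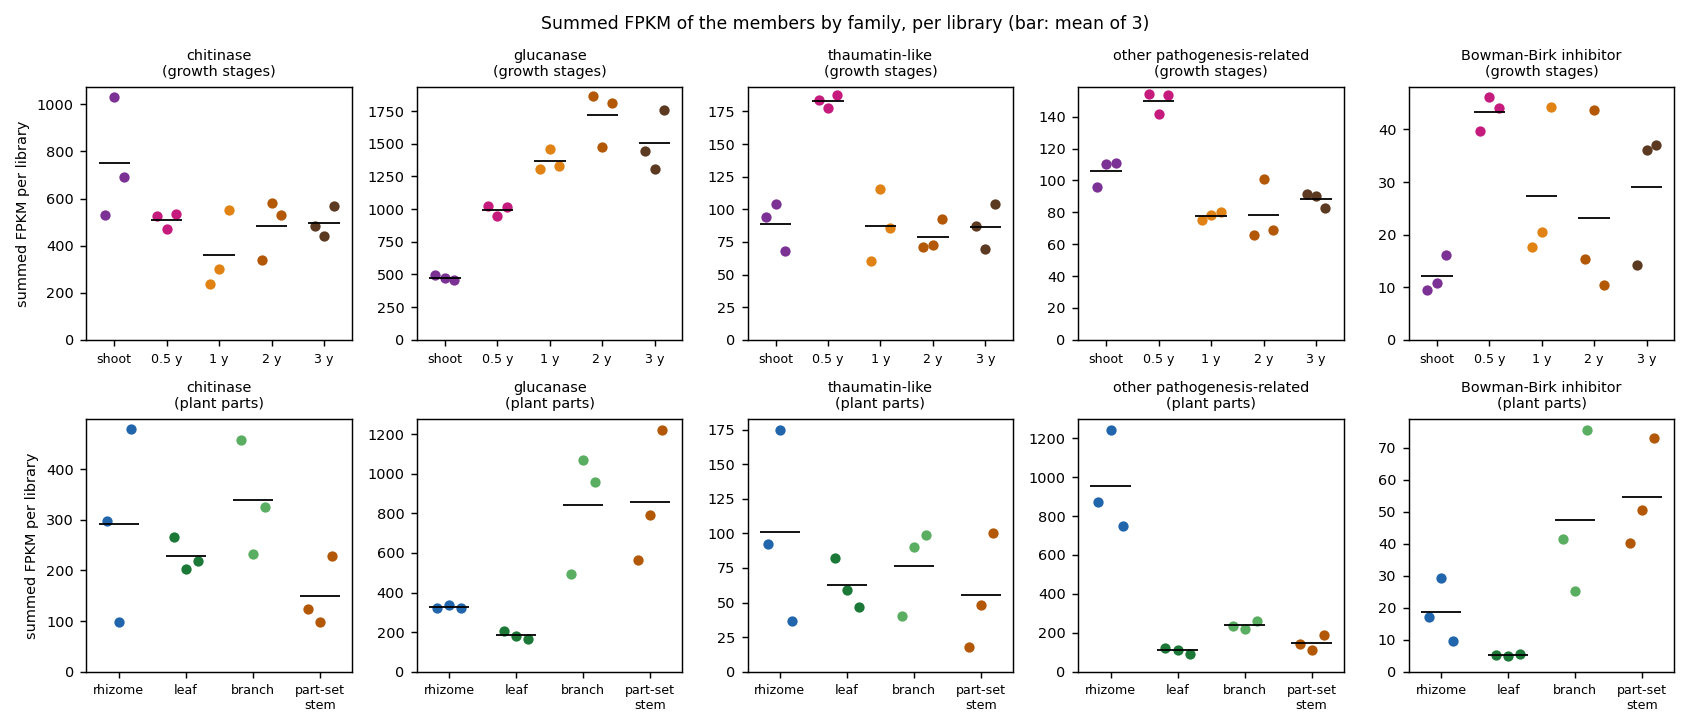
Summed FPKM of each family's members per library (y axis, starting at 0) by growth stage (upper row) and plant part (lower row); points are libraries and bars the mean of 3. Glucanase sums are lowest in shoots and in leaves, and the sum of other pathogenesis-related genes is highest in rhizomes.

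The families did not share one course through the stages. Glucanase RNA summed to 459 to 494 FPKM in shoots, 944 to 1023 in 0.5-year stems, 1309 to 1461 in 1-year stems, 1477 to 1862 in 2-year stems and 1307 to 1758 in 3-year stems, so that each stem library stood above every shoot. Thaumatin-like RNA peaked at 0.5 years, with 68.3 to 104 FPKM in shoots, 177 to 187 in 0.5-year stems and 60.7 to 116 in stems of 1 to 3 years, and the 0.5-year libraries stood apart. The other pathogenesis-related genes peaked there too, with 96.1 to 111 FPKM in shoots, 142 to 154 in 0.5-year stems and 66 to 101 in stems of 1 to 3 years. Chitinase sums overlapped between stages, with 530 to 1032 FPKM in shoots, 472 to 533 in 0.5-year stems and 236 to 583 in the older stems. In bulk tissue, fewer cells of a type and less RNA per cell cannot be told apart.

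The highest group mean of a member was in shoots for 53 of the 121 tested, in 0.5-year stems for 28, and in 1-, 2- and 3-year stems for 7, 13 and 20. The same was not counted for all genes, so it does not set the members apart. More members were called between the shoot and the stem than between neighbouring ages of 1 year or more. In the 0.5-year stem against the shoot, 42 of 121 members were called higher (34.7%) and 41 lower (33.9%), beside 26.5% and 27.3% of all 29538 genes tested. In the 3-year stem against the shoot, 37 were higher (30.6%) and 52 lower (43%), beside 30.2% and 35.0% of all genes. That balance turned round with a mean of 5 FPKM or more required. Of 48 members then tested, 25 were higher and 16 lower, beside 5559 and 6149 of 16191 genes. From 0.5 to 1 year most calls were falls, with 11 members higher (9.09%) and 36 lower (29.8%), beside 14.4% and 16.0% of all genes. From 1 to 2 years 3 members were higher and 0 lower, beside 1.03% and 0.474%, with 14 and 8 at an unadjusted p under 0.05. DESeq2 called 7 higher and 0 lower there, beside 4.06% and 1.93%. From 2 to 3 years edgeR called 0 members, beside 0.00% of all genes higher and 0.00677% lower, with 4 and 8 at an unadjusted p under 0.05 and 0 calls by DESeq2 or limma. These comparisons share libraries, so their counts are not independent of each other.

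The count from 0.5 to 1 year depends on how the close 0.5-year libraries are counted. With these 3 summed to 1 sample, which is then assumed to vary like the other groups, 18 members were called instead of 47, with 3 higher and 15 lower, beside 2.29% and 4.95% of all genes. Against the shoot the same step left 35 higher and 30 lower, beside 18.1% and 13.8% of all genes. The 121 heat shock genes of the tissue checks summed to 2282 to 2880 FPKM in shoots, 6788 to 7110 in 0.5-year stems and 1873 to 3454 in stems of 1 to 3 years. The 72 secondary wall genes (wall cellulose synthases and laccases) summed to 436 to 1118 FPKM in shoots, 753 to 799 in 0.5-year stems and 13.9 to 225 in stems of 1 to 3 years. The part of these, or of dividing cells, in the members' changes was not tested. Another test and unit also shifted the changes: with limma on log2(FPKM + 1) the median of all genes was -0.28 in the 0.5-year stem against the shoot, -0.16 from 1 to 2 years, -0.47 in the 3-year stem against the shoot and 0.11 in branch against part-set stem, where edgeR gave -0.04, -0.05, -0.12 and -0.02. In the 0.5-year stem against the shoot limma called 43 members higher and 42 lower, beside 20.8% and 38.9% of all genes. From 1 to 2 years it called 4 and 1, beside 0.917% and 1.85%. In the 3-year stem against the shoot it called 33 and 52, beside 22.3% and 47.4%, so that the share of members lower (43%) was above that of all genes with edgeR and below it with limma.

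**Figure D2:**
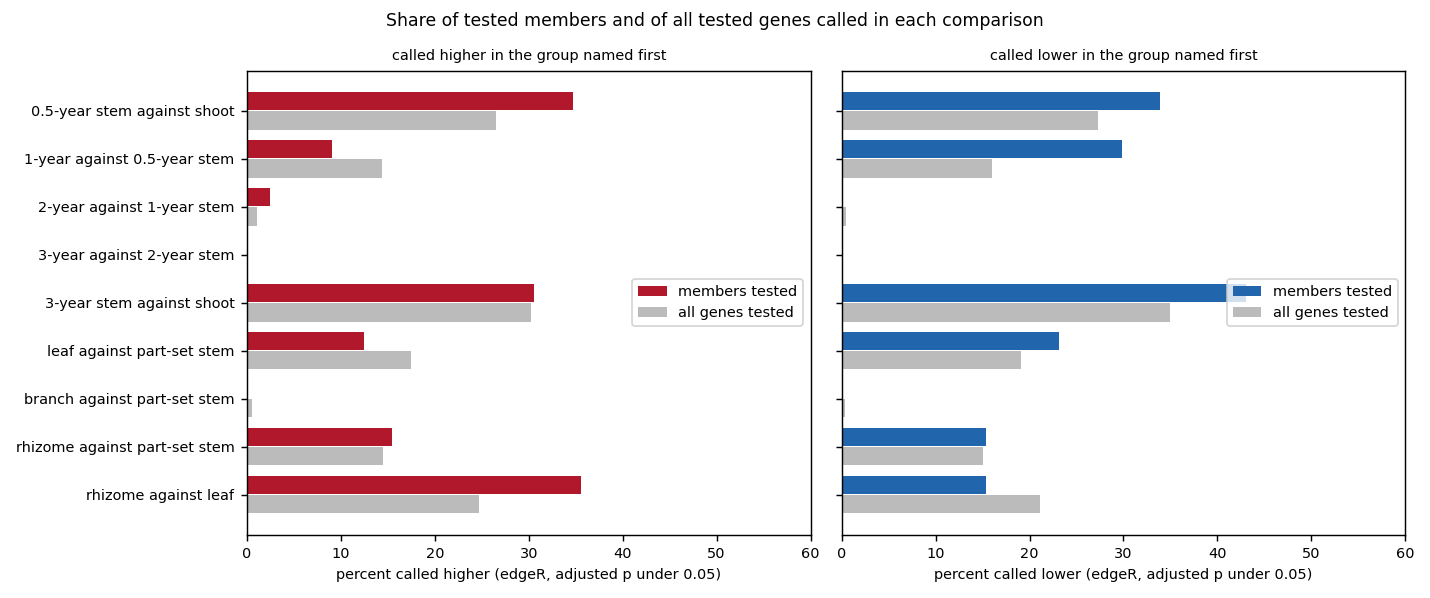
Percent of tested members (coloured bars) and of all tested genes (grey bars) called higher (left) and lower (right) by edgeR in each comparison, in the group named first. In the 1-year against the 0.5-year stem 29.8% of members and 16.0% of all genes are lower, and in rhizome against leaf 35.6% of members and 24.7% of all genes are higher.

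Among the 65 glucanases tested, 22 were called higher (33.8%) and 23 lower (35.4%) in the 0.5-year stem against the shoot, beside 26.5% and 27.3% of all genes. Their median log2 change was 0.00, beside -0.04 for all genes. In the 3-year stem against the shoot 21 were higher (32.3%) and 31 lower (47.7%), beside 30.2% and 35.0% of all genes (median -1.19, all genes -0.12). The family sum was carried by a few genes that rose steeply in stems. The leading one, PH02Gene15482, described as a 14-like glucanase, had 8.14, 17.3 and 17.4 FPKM in shoots and 299, 273 and 302 FPKM in 0.5-year stems. Later it had 484, 420.0 and 231 FPKM at 1 year, 721, 469 and 722 FPKM at 2 years and 393, 396 and 648 FPKM at 3 years. Every stem library stood far above the highest shoot library, and the gene rose both at 0.5 years (log2 change 4.72 ± 0.41, adjusted p = 8.06e-07) and at 3 years (5.61 ± 0.43, adjusted p = 1.11e-07) against the shoot. Its close namesake PH02Gene33143 had 4.4, 9.81 and 13.7 FPKM in shoots and 97.2, 81.7 and 91.8 FPKM in 0.5-year stems. Later it had 245, 511 and 458 FPKM at 1 year, 394, 279 and 307 FPKM at 2 years and 289, 199 and 307 FPKM at 3 years. This gene rose at 0.5 years (log2 change 3.66 ± 0.38, adjusted p = 3.29e-06) and again at 1 year against 0.5 years (2.10 ± 0.35, adjusted p = 0.000713), with no overlap of libraries, though the second call ended when the 0.5-year libraries were summed (adjusted p = 0.0543).

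A glucanase described as number 8, PH02Gene15175 (At1g64760), was near its later level already at 0.5 years: it had 6.98, 3 and 2.79 FPKM in shoots and 222, 189 and 213 FPKM in 0.5-year stems. Later it had 183, 113 and 175 FPKM at 1 year, 221, 198 and 220.3 FPKM at 2 years and 165, 169 and 142 FPKM at 3 years. The groups of shoot and stem did not overlap (log2 change 5.94 ± 0.38, adjusted p = 5.91e-08 for the 0.5-year stem against the shoot), and the changes between stem ages were not called. GLC1 (PH02Gene49193), another beta-1,3-glucanase, was highest in old stems, with 22.2, 10.2 and 10.8 FPKM in shoots and 70.9, 82 and 83.4 FPKM in 0.5-year stems. Later it had 89.5, 52.9 and 98.7 FPKM at 1 year, 237, 154 and 241 FPKM at 2 years and 244, 233 and 270.1 FPKM at 3 years. It rose at 0.5 years against the shoot (log2 change 2.80 ± 0.34, adjusted p = 1.54e-05) and at 2 years against 1 year (1.60 ± 0.33, adjusted p = 0.035). That second call ended without 1-year library 1, 2 or 3 or 2-year library 1 or 3, with adjusted p from 0.0549 to 0.162, and in a fit of the 6 libraries alone (adjusted p = 0.0667). The other 2 members called at 2 years were low, the 11-like glucanase PH02Gene36992 at 0.977 against 0.203 FPKM and the class III chitinase PSC (PH02Gene40516) at 1.77 against 0.164 FPKM (means of 2- and 1-year stems), and were named for their count and not by the rule.

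MSTRG.1253 is described as a 4-like glucanase but bears the symbol PDCB5, of proteins that bind callose at plasmodesmata in Arabidopsis and do not cut it. It had 8.17, 21.2 and 19.4 FPKM in shoots and 55.2, 46.3 and 46.9 FPKM in 0.5-year stems. Later it had 153, 184 and 159 FPKM at 1 year, 109, 108 and 103 FPKM at 2 years and 88, 75.2 and 85.4 FPKM at 3 years. Its highest libraries were those of 1-year stems, above every library of the other stages, and it rose at 0.5 years against the shoot (log2 change 2.00 ± 0.25, adjusted p = 2.07e-05) and at 1 year against 0.5 years (1.68 ± 0.25, adjusted p = 0.000315).

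Other glucanases were shoot genes. PH02Gene02493 (At4g29360, 12-like) had 0.113, 0.184 and 0.081 FPKM in 0.5-year stems, against 52.9, 93.8 and 32 FPKM in shoots (log2 change -8.46 ± 0.51, adjusted p = 4.31e-08), and no older stem was over 0.159 FPKM. PH02Gene14137 (At1g32860, described as number 10) had 0.049, 0.04 and 0.052 FPKM in 0.5-year stems, or 3 counts, against 17.7, 12.3 and 8.75 FPKM in shoots (a counted ratio of 285 with an exact 95% interval of 97.3 to 1386, edgeR adjusted p = 1.26e-06; such ratios are of the CPM of the higher to the lower group, over 3 libraries each, and their intervals cover counting error alone). Its 1-year level of 0.147, 1.2 and 0.481 FPKM was called above the 0.5-year level (a counted ratio of 12.6 with an exact 95% interval of 3.94 to 64.1, edgeR adjusted p = 0.00573), though still far under the shoot, and that call ended with limma on log2(FPKM + 1) and when the 0.5-year libraries were summed. For both genes no stem library came near the lowest shoot library.

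Of the 25 chitinases tested, 5 were called higher (20%) and 9 lower (36%) in the 0.5-year stem against the shoot, beside 26.5% and 27.3% of all genes. In the 3-year stem 7 were higher (28%) and 12 lower (48%), beside 30.2% and 35.0% of all genes (median log2 change -0.80, all genes -0.12). Class I and II enzymes of this family carry the names Cht in rice. Cht6 (PH02Gene28083) had 0.415, 0.219 and 4.24 FPKM in shoots and 79.3, 64.9 and 84.8 FPKM in 0.5-year stems. Later it had 56.8, 65.6 and 159.6 FPKM at 1 year, 122, 126 and 243 FPKM at 2 years and 137, 71.9 and 154 FPKM at 3 years. It rose in the 0.5-year stem against the shoot (log2 change 5.94 ± 0.75, adjusted p = 1.99e-05) and in the 3-year stem (6.78 ± 0.77, adjusted p = 3.89e-06), and shoot library 3 was the only shoot above 1 FPKM. Cht2 (PH02Gene16703), described as a basic endochitinase A, fell first and rose later, with 62.3, 21.5 and 62.3 FPKM in shoots and 16.2, 13.7 and 15.3 FPKM in 0.5-year stems. Later it had 85, 120.0 and 193 FPKM at 1 year, 106, 263 and 146 FPKM at 2 years and 236, 219 and 245 FPKM at 3 years. All 0.5-year libraries lay under every other library, and the fall against the shoot (log2 change -1.32 ± 0.38, adjusted p = 0.00868) ended when they were summed (adjusted p = 0.125). Its rise at 1 year against 0.5 years (3.07 ± 0.40, adjusted p = 0.000134) and at 3 years against the shoot (2.79 ± 0.39, adjusted p = 2.48e-05) was called, and it was the most abundant chitinase of the set.

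Cht7 took the reverse course. PH02Gene32087, described as chitinase 7-like, had 139, 599.5 and 289 FPKM in shoots and 148, 119 and 138 FPKM in 0.5-year stems. Later it had 2.32, 4.65 and 2.05 FPKM at 1 year, 1.9, 8.77 and 1.53 FPKM at 2 years and 5.67, 4.81 and 5.78 FPKM at 3 years. Shoots and 0.5-year stems overlapped and no change was called (adjusted p = 0.129), while every library of 1 year or older was at or under 8.77 FPKM and the 1-year stem fell against the 0.5-year stem (-5.54 ± 0.66, adjusted p = 7.79e-05). The second gene of that symbol, PH02Gene32287, followed at a lower level, with 12, 95.1 and 40.7 FPKM in shoots and 17.9, 15.5 and 23.3 FPKM in 0.5-year stems. Later it had 0, 1.01 and 1.43 FPKM at 1 year, 0, 0 and 0 FPKM at 2 years and 0.711, 0.731 and 0.02 FPKM at 3 years. Its 1-year stems were again below its 0.5-year stems (log2 change -4.54 ± 0.91, adjusted p = 0.00317). Cht9 (PH02Gene04344), a further basic endochitinase A, had 0.216, 0.108 and 0.227 FPKM in 0.5-year stems, against 67.4, 12.5 and 9.04 FPKM in shoots (log2 change -7.06 ± 0.93, adjusted p = 5.56e-05). It was at or under 0.109 FPKM in older stems.

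Chitinase-like proteins such as CTL1 lack chitinase activity in Arabidopsis, where they act in cellulose assembly. Both CTL1 genes fell after 0.5 years. PH02Gene04647 had 63.9, 111 and 94.7 FPKM in shoots and 93.9, 93.2 and 101 FPKM in 0.5-year stems. Later it had 36.6, 29.9 and 46.4 FPKM at 1 year, 24.3, 38.5 and 14.9 FPKM at 2 years and 17.9, 30.2 and 27.8 FPKM at 3 years. It was lower at 1 year than at 0.5 years (log2 change -1.40 ± 0.29, adjusted p = 0.00275) with no overlap. PH02Gene07059 had 13.7 to 18.8 FPKM in shoots, 12.9 to 13.3 FPKM in 0.5-year stems and 5.67 to 9.17 FPKM in stems of 1 to 3 years. It fell by less at 1 year against 0.5 years (-0.67 ± 0.16, adjusted p = 0.00638). Cht8 (PH02Gene03004) had 19.8, 37.3 and 38.3 FPKM in 3-year stems, against 0.185, 0.325 and 11.2 FPKM in shoots (log2 change 3.61 ± 0.91, adjusted p = 0.00302), where library 3 alone was above 1 FPKM.

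Thaumatin-like genes were split, with 7 of 17 called higher (41.2%) and 8 lower (47.1%) in the 0.5-year stem against the shoot, and 2 not called. Of all genes 26.5% were called higher and 27.3% lower there. TL1 (PH02Gene24694) was foremost a 0.5-year gene: it had 0.099, 0.13 and 0.115 FPKM in shoots and 77.9, 75.8 and 73.9 FPKM in 0.5-year stems. Later it had 6.4, 5.88 and 14.5 FPKM at 1 year, 2.71, 1.14 and 5.21 FPKM at 2 years and 0.885, 1.3 and 4.37 FPKM at 3 years. The 0.5-year libraries stood well above every other library, with a rise against the 3 counts of the shoots (a counted ratio of 672 with an exact 95% interval of 229 to 3259, edgeR adjusted p = 6.79e-07) and a fall at 1 year (-3.15 ± 0.52, adjusted p = 0.000643). TLP1 (PH02Gene28314) rose with it, to 78.1, 73.9 and 81.5 FPKM in 0.5-year stems, against 0.159, 0.262 and 1.15 FPKM in shoots (log2 change 7.59 ± 0.51, adjusted p = 9.24e-08). It kept 18.7 to 48.5 FPKM in stems of 1 to 3 years, all below the 0.5-year stems. Its fall at 1 year (-1.26 ± 0.36, adjusted p = 0.0182) ended without 0.5-year library 1 or 3 or 1-year library 1 or 3 (adjusted p = 0.0534 to 0.0637) and when the 0.5-year libraries were summed (0.179). Another TLP1 gene, PH02Gene28313, had 0, 0 and 0.135 FPKM in shoots and 5.08, 4.08 and 6.16 FPKM in 0.5-year stems. Later it had 10.2, 33 and 15.9 FPKM at 1 year, 16.6, 19.4 and 35.1 FPKM at 2 years and 29.8, 31.2 and 50.7 FPKM at 3 years. It rose at 0.5 years (a counted ratio of 113 with an exact 95% interval of 30.9 to 938, edgeR adjusted p = 9.76e-06) and at 3 years (a counted ratio of 815 with an exact 95% interval of 225 to 6736, edgeR adjusted p = 1.1e-07) against the shoot, where library 3 held the only 2 counts.

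Further thaumatin-like genes, some with the same description, were high in shoots and near 0 in stems. PH02Gene32525 (At1g18250) had 0, 0 and 0 FPKM in 3-year stems, at least 428-fold lower than the 37, 29.8 and 22 FPKM of shoots with 3 counts taken for the 3 stem libraries together (adjusted p = 1.7e-07), and no stem library of any age was over 0.082 FPKM. PH02Gene48120 (TLP1) had 0, 0 and 0 FPKM in 3-year stems, at least 173-fold lower than 25.8, 29.2 and 9.97 FPKM in shoots (adjusted p = 0.000102), a call that DESeq2 did not make (adjusted p = 0.0578). PH02Gene05023 (TLP1) had 0.427, 0.298 and 0.131 FPKM in 0.5-year stems, against 5.42, 12.1 and 14.4 FPKM in shoots (log2 change -4.80 ± 0.70, adjusted p = 6.74e-05). TLP1 genes with one description, thaumatin-like protein 1b, were thus high at opposite ends of this series.

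**Figure D3:**
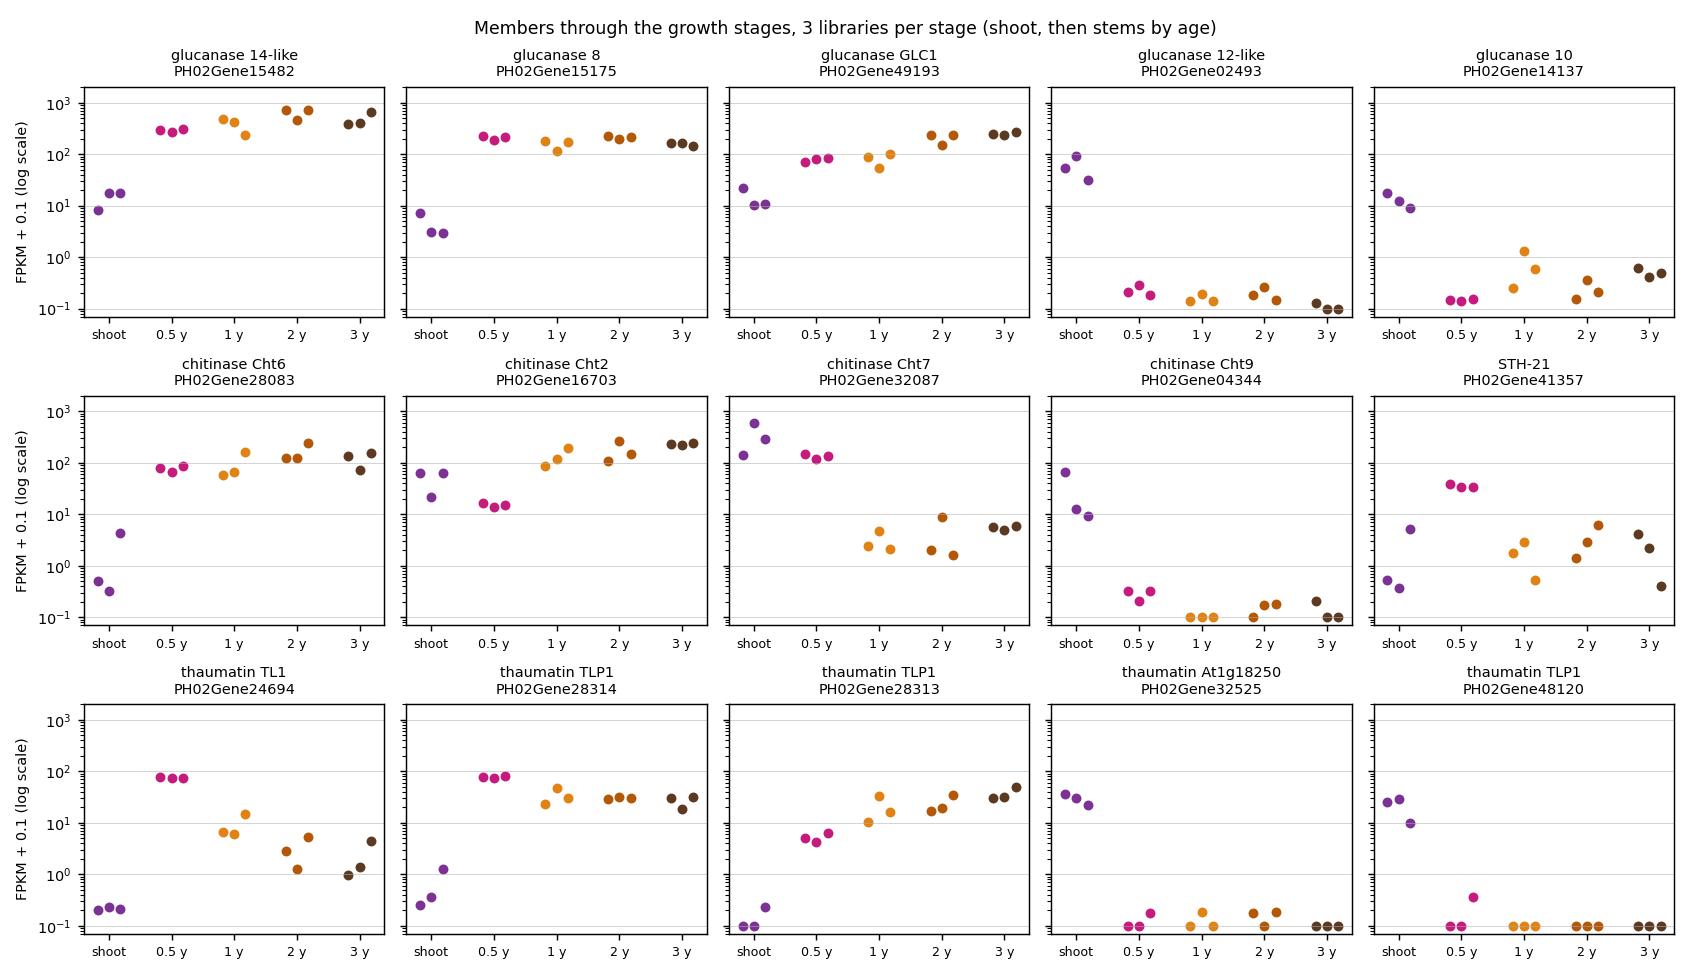
FPKM + 0.1 on a log scale for 15 members in each library of the 5 growth stages, shoots at the left and stems by age in years to the right; each point is a library. TL1 (PH02Gene24694) peaks at 73.9 to 77.9 FPKM in 0.5-year stems, whereas PH02Gene32525 and PH02Gene48120 are at 9.97 FPKM or more in shoots and at or under 0.268 FPKM in all stems.

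Among the other pathogenesis-related genes 6 of 11 were called higher and 1 lower in the 0.5-year stem against the shoot, beside 26.5% and 27.3% of all genes. At 1 year against 0.5 years 1 was higher and 6 were lower, beside 14.4% and 16.0% of all genes. PH02Gene41357, described as STH-21 after a potato protein, had 0.421, 0.277 and 5.12 FPKM in shoots and 39.4, 33.4 and 33.7 FPKM in 0.5-year stems. Later it had 1.67, 2.83 and 0.42 FPKM at 1 year, 1.3, 2.84 and 6.14 FPKM at 2 years and 3.98, 2.07 and 0.3 FPKM at 3 years. Its 0.5-year libraries were above all others, with a rise against the shoot (log2 change 4.59 ± 0.90, adjusted p = 0.000701) and a fall at 1 year (-4.47 ± 0.91, adjusted p = 0.00259). PRMS (PH02Gene48686), a PR1 protein first named in maize, was the most abundant of the group, with 27.5, 52.8 and 20 FPKM in shoots and 41.4, 34.6 and 45.7 FPKM in 0.5-year stems. Later it had 16.9, 15 and 22.2 FPKM at 1 year, 11, 27.5 and 10.6 FPKM at 2 years and 35.4, 26 and 24.3 FPKM at 3 years. Shoots overlapped with every stem age. Its fall at 1 year (log2 change -1.22 ± 0.38, adjusted p = 0.025) ended without 0.5-year library 1 or 3 or 1-year library 1 or 2 (adjusted p = 0.0566 to 0.0901) and when the 0.5-year libraries were summed (0.188).

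A second gene with the PRMS symbol, PH02Gene38178, described as pathogenesis-related protein 1, had 8.53, 10.2 and 10.7 FPKM in 3-year stems, against 0, 0 and 0.837 FPKM in shoots (log2 change 5.59 ± 1.08, adjusted p = 0.000413). All 3-year libraries were above all shoots, but 2-year library 2 alone had 15.8 FPKM. CRK6 (PH02Gene26703), a receptor kinase described as PR1-RK and not a secreted protein, ranged over 10.2 to 27.5 FPKM in all 15 libraries, with a rise at 0.5 years against the shoot (log2 change 0.98 ± 0.22, adjusted p = 0.00171). PRH (PH02Gene24761), a homeodomain protein named for binding the promoter of a pathogenesis-related gene in parsley, had 12, 12.3 and 10.5 FPKM in 0.5-year stems, against 31.1, 33.3 and 33.4 FPKM in shoots (log2 change -1.13 ± 0.18, adjusted p = 0.000118). Every stem library was under every shoot.

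Of the 3 Bowman-Birk genes tested, 2 rose in the 0.5-year stem against the shoot and 0 fell, beside 26.5% and 27.3% of all genes. MSTRG.17699 had 8.49, 5.6 and 6.03 FPKM in shoots and 31.5, 38.6 and 36.8 FPKM in 0.5-year stems. Later it had 15.9, 6.77 and 14.8 FPKM at 1 year, 10.5, 18.4 and 9.53 FPKM at 2 years and 7.82, 14.8 and 11.2 FPKM at 3 years. It was highest in 0.5-year stems, above every other library (log2 change 2.75 ± 0.35, adjusted p = 1.98e-05 against the shoot). At 1 year it fell (-1.54 ± 0.33, adjusted p = 0.00356), a call that ended when the 0.5-year libraries were summed (adjusted p = 0.0681). The trypsin inhibitor PH02Gene06062 was low, with 0, 0.852 and 0 FPKM in shoots and 4.77, 4.37 and 4.09 FPKM in 0.5-year stems. Later it had 0.271, 0.305 and 0.582 FPKM at 1 year, 0.59, 1.42 and 0 FPKM at 2 years and 1.5, 0.897 and 0 FPKM at 3 years. It too stood apart at 0.5 years, above every other library (a counted ratio of 18.1 with an exact 95% interval of 5.89 to 90.7, edgeR adjusted p = 0.00194 against the shoot). It was called lower at 1 year (adjusted p = 0.0127), a call that ended when the 0.5-year libraries were summed (0.102). WIP1 (PH02Gene04151), known in maize as a wound-induced proteinase inhibitor, scattered within groups, with 1.38 to 28.8 FPKM in 1-year stems and 0.987 to 23.9 FPKM in 2-year stems, and was not called between any of the stages compared.

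The plant part set asked which parts of the bamboo hold these RNAs. Rhizomes held the most RNA of the other pathogenesis-related genes and leaves the least glucanase RNA. Between branches and part-set stems edgeR called no member, while other tools called some. Leaves had 13 of 104 members called higher than part-set stems (12.5%) and 24 lower (23.1%), beside 17.5% and 19.1% of all 29630 genes tested. Rhizomes had 16 higher (15.4%) and 16 lower (15.4%) than part-set stems, close to the 14.5% and 15% of all genes. Against leaves, rhizomes had 37 higher (35.6%) and 16 lower (15.4%), beside 24.7% and 21.1% of all genes. Without rhizome library 1 the counts were 12 and 10 against part-set stems, beside 9.18% and 9.26% of all genes, and 32 and 11 against leaves, beside 20.6% and 16.5%. In a fit of the 6 libraries alone 8 were higher and 5 lower than in part-set stems, beside 5.26% and 6.78%.

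Branch against part-set stem gave 0 calls among the 104 members by edgeR, beside 0.489% of all genes higher and 0.300% lower, with 25 members higher and 3 lower at an unadjusted p under 0.05. Other fits called a few members, each of them higher in branch. DESeq2 called 12, beside 4.01% of all genes higher and 2.01% lower. On log2(FPKM + 1) limma called 7, beside 2.69% and 0.429%, and on log2(FPKM + 0.1) it called 5, beside 1.71% and 0.287%. With edgeR on the 6 libraries alone 4 were called, beside 1.32% and 0.277%. The highest group mean was in branches for 40 of the 104 members (the lowest for 2), in rhizomes for 33, in leaves for 16 (the lowest for 51) and in part-set stems for 15. Here too all genes were not counted, so the members are not set apart by it. Part-set stem libraries differed among themselves by a chi-square of 26.8 to 58.1 per degree of freedom and their summed heat shock FPKM ran from 6293 to 28559. What this did to the comparisons of branch, leaf and rhizome with part-set stems was not tested.

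PRMS (PH02Gene48686) was highest in rhizomes. It had 597, 1216 and 208 FPKM in rhizomes, 30.2, 47.5 and 37 FPKM in leaves, 114, 100.3 and 149 FPKM in branches and 72.2, 30 and 60.7 FPKM in part-set stems. Each rhizome library was above every library of the other parts, though rhizome library 2 was far above library 3. It was higher in rhizomes than in part-set stems (log2 change 3.61 ± 0.61, adjusted p = 0.00196, and adjusted p = 0.00642 without rhizome library 1) and than in leaves (4.05 ± 0.63, adjusted p = 0.000366, and 0.00112 without it). Including PRMS, the summed FPKM of the other pathogenesis-related genes was 748 to 1240 in rhizomes, 92 to 124 in leaves, 219 to 262 in branches and 114 to 187 in part-set stems. The STH-21 gene PH02Gene41357 held 164, 0 and 334 FPKM of the rhizome sums, more than PRMS in library 3.

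Several glucanases were also rhizome genes. PH02Gene36613 (At1g64760, described as number 8) had 23.6, 12.6 and 26.6 FPKM in rhizomes, 1.12, 1.24 and 1.19 FPKM in leaves, 5.15, 2.24 and 2.77 FPKM in branches and 1.28, 2.76 and 2.39 FPKM in part-set stems. The rhizome stood above all others (log2 change 3.23 ± 0.37, adjusted p = 0.000195 against part-set stems, and adjusted p = 0.0016 without rhizome library 1). PH02Gene25142 (At4g34480, 7-like) had 13.2, 21 and 12 FPKM in rhizomes, 3.68, 3.95 and 2.49 FPKM in leaves, 5.93, 4.8 and 3.19 FPKM in branches and 3.14, 2.23 and 3.02 FPKM in part-set stems. Again the rhizomes did not overlap with the rest (log2 change 2.41 ± 0.36, adjusted p = 0.000999, and 0.00361 without library 1). PH02Gene49144 (At4g31140, described as number 5) had 9.63, 18.3 and 2.84 FPKM in rhizomes, 0.579, 1.15 and 1.01 FPKM in leaves, 2.42, 2 and 2.92 FPKM in branches and 2.01, 1.95 and 1.99 FPKM in part-set stems. It was called against part-set stems (log2 change 2.36 ± 0.58, adjusted p = 0.0116, and adjusted p = 0.0282 without rhizome library 1), and not in a fit of those 6 libraries alone (adjusted p = 0.0681). Of the 54 glucanases tested, 24 were higher (44.4%) and 9 lower (16.7%) in rhizomes than in leaves, beside 24.7% and 21.1% of all genes. Their median log2 change there was 1.05 (all genes 0.10). Against part-set stems 8 were higher (14.8%) and 10 lower (18.5%), beside 14.5% and 15% of all genes (median 0.09, all genes 0.00). Without rhizome library 1 these counts were 22 and 6 against leaves, beside 20.6% and 16.5% of all genes. Against part-set stems they were then 8 and 7, beside 9.18% and 9.26%. PH02Gene12455, also At4g34480 and 7-like, had 11.3, 9.16 and 14.3 FPKM in rhizomes, 2.26, 1.75 and 0.741 FPKM in leaves, 9.69, 4.5 and 3.79 FPKM in branches and 10.1, 9.46 and 13.5 FPKM in part-set stems. Leaves were lowest (log2 change -2.73 ± 0.42, adjusted p = 0.000578 for leaf against part-set stem and 2.73 ± 0.42, adjusted p = 0.000367 for rhizome against leaf, 0.0015 without rhizome library 1).

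The 3 rhizome libraries disagreed about which defence genes were on. Of 50 members with 5 FPKM or more in a rhizome library, 11 (22%) were over 4-fold lower in library 2 than in both others and 8 (16%) in library 3, beside 8.14% and 6.48% of all such genes, and library 1 had 0 members over 4-fold below and 0 above both others. Cht7 (PH02Gene32087) had 159, 0.079 and 313 FPKM, the STH-21 gene PH02Gene41357 164, 0 and 334 FPKM and the PR1 gene PH02Gene38178 28.5, 0.317 and 69.6 FPKM in rhizome libraries 1, 2 and 3. These genes were low in library 2, and none of them was called against part-set stems (adjusted p = 0.0993, 0.217 and 0.319). The thaumatin-like genes PH02Gene32525 and PH02Gene05023 went the other way, with 47, 102 and 0.412 FPKM and 14.5, 37.3 and 0.216 FPKM, low in library 3. Summed FPKM of the 71 secondary wall genes was 288.3, 558.3 and 98.2 and that of the 44 genes of dividing cells 160.5, 205.9 and 124 in these 3 libraries, highest in library 2. Their part in the differences was not tested.

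Both of these thaumatin-like genes were called higher in rhizomes than in part-set stems, where PH02Gene32525 had 0, 0 and 0.424 FPKM (log2 change 8.33 ± 1.75, adjusted p = 0.00569, and 0.0158 without rhizome library 1) and PH02Gene05023 had 0.075, 0 and 0.148 FPKM, or 3 counts (a counted ratio of 219 with an exact 95% interval of 74.8 to 1067, edgeR adjusted p = 0.0076, and 0.019 without rhizome library 1). Rhizome library 3 overlapped with part-set stems for PH02Gene32525, and for PH02Gene05023 it lay just above them. With only the 6 libraries in the fit the call for PH02Gene32525 ended (adjusted p = 0.0504). Both were shoot genes in the growth stages, and summed FPKM of 44 genes of dividing cells was 124 to 205.9 in rhizomes, against 86 to 98.1 in leaves and 102.1 to 112.8 in part-set stems. Whether this went with the thaumatin-like genes was not tested.

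**Figure D4:**
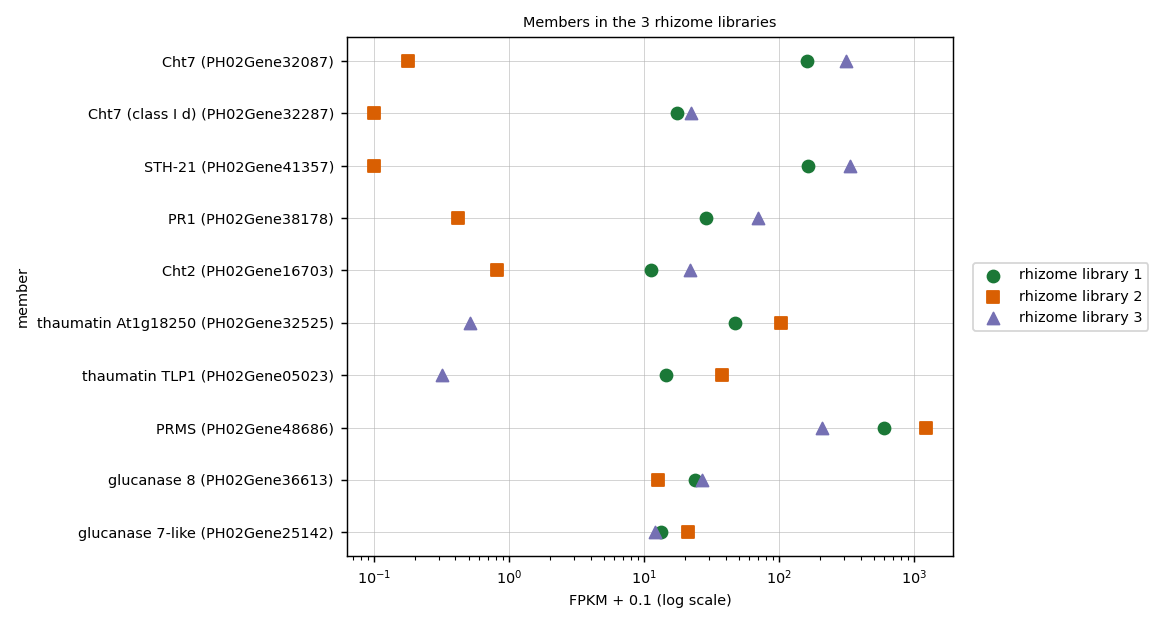
FPKM + 0.1 on a log scale (x axis) of 10 members (rows) in the 3 rhizome libraries (markers). The Cht7 gene PH02Gene32087, STH-21 and PR1 are at 0 to 0.317 FPKM in library 2 and at 28.5 FPKM or more in libraries 1 and 3, and the 2 thaumatin-like genes are at 0.412 FPKM or less in library 3.

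Of the 25 chitinases tested, 8 were called higher (32%) and 3 lower (12%) in leaves than in part-set stems, beside 17.5% and 19.1% of all genes. In each of the other 4 families more members were called lower than higher. CTL1 (PH02Gene07059) had 3.71, 2.53 and 4.01 FPKM in rhizomes, 59.1, 56.9 and 60.8 FPKM in leaves, 18, 16.6 and 19 FPKM in branches and 15.7, 15.7 and 15.3 FPKM in part-set stems. Leaves were above and rhizomes below all others, with little spread (log2 change 2.00 ± 0.17, adjusted p = 1.32e-05 for leaf and -2.25 ± 0.17, adjusted p = 1.54e-05 for rhizome, both against part-set stems, with adjusted p = 0.000259 for rhizome without its library 1). CHIT3 (PH02Gene05185), a class III chitinase, had 1.47, 1.66 and 2.67 FPKM in rhizomes, 33.6, 13.6 and 24.8 FPKM in leaves, 11.6, 3.08 and 1.5 FPKM in branches and 0.408, 0 and 1.34 FPKM in part-set stems (log2 change 5.36 ± 0.95, adjusted p = 0.0013 for leaf). Cht8 (PH02Gene03004) had 17.3, 3.31 and 26.6 FPKM in rhizomes, 83.8, 39.4 and 55.4 FPKM in leaves, 35.4, 21.7 and 19 FPKM in branches and 11.9, 2.32 and 8.35 FPKM in part-set stems. Leaves did not overlap with rhizomes or part-set stems (log2 change 3.02 ± 0.70, adjusted p = 0.00596 for leaf against part-set stem). Rhizomes were called lower than leaves (-2.09 ± 0.67, adjusted p = 0.0241). That call ended without rhizome library 1 (adjusted p = 0.0623) and without leaf library 1 or 3 (0.0778 and 0.0504).

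A thaumatin-like gene and a glucanase were likewise highest in leaves. PH02Gene45597 (Os12g0628600) had 0.218, 0 and 2.27 FPKM in rhizomes, 65, 42.1 and 32.8 FPKM in leaves, 15.1, 8.9 and 6.23 FPKM in branches and 1.65, 4.9 and 9 FPKM in part-set stems (log2 change 3.23 ± 0.76, adjusted p = 0.00675 for leaf). PH02Gene16622 (At5g58090, 5-like) had 11.6, 8.83 and 12.2 FPKM in leaves and at most 2.28 FPKM in any library of the other parts (log2 change 3.18 ± 0.74, adjusted p = 0.00611). Both were lower in rhizomes than in leaves (-5.91 ± 0.91, adjusted p = 0.000364 and -5.66 ± 0.87, adjusted p = 0.000361), also without rhizome library 1 (0.00277 and 0.00338). Neither was a gene of the growth stages, where no library passed 2.44 FPKM. BANGLUC (PH02Gene40708), named for a barley glucanase and described as isoenzyme GV, had 0.589, 0 and 0.773 FPKM in rhizomes, 17.4, 12 and 6.9 FPKM in leaves, 8.82, 4.21 and 9.7 FPKM in branches and 6.43, 0 and 1.36 FPKM in part-set stems. Every rhizome was below every leaf (log2 change -4.89 ± 1.21, adjusted p = 0.00685, and 0.0268 without rhizome library 1), and leaf against part-set stem was not called (adjusted p = 0.108).

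The glucanases that led in stems of the growth stages were lower in leaves and rhizomes than in part-set stems. PH02Gene15482 had 23.5, 34.7 and 22.3 FPKM in rhizomes, 31.2, 16.6 and 12.9 FPKM in leaves, 81.5, 511 and 404 FPKM in branches and 254, 367 and 489 FPKM in part-set stems. Leaf and rhizome libraries were all below the part-set stems (log2 change -4.11 ± 0.65, adjusted p = 0.00063 for leaf and -3.81 ± 0.64, adjusted p = 0.00181 for rhizome, 0.0128 without rhizome library 1), while branch library 1 was far below the other branches. PH02Gene15175 had 0.755, 0.264 and 1.23 FPKM in rhizomes, 5.68, 6.35 and 7.81 FPKM in leaves, 37.9, 117 and 119 FPKM in branches and 19, 55.9 and 109 FPKM in part-set stems. Rhizomes were lowest (log2 change -6.40 ± 0.78, adjusted p = 0.000305, and 0.00345 without rhizome library 1). PH02Gene33143 had 50.1, 49.6 and 59.8 FPKM in rhizomes, 13.4, 15.9 and 14.2 FPKM in leaves, 53, 127 and 105 FPKM in branches and 98.8, 141 and 396 FPKM in part-set stems. It was lower in leaves (-3.78 ± 0.52, adjusted p = 0.000276) and in rhizomes (-2.05 ± 0.48, adjusted p = 0.00997, and 0.0424 without rhizome library 1) than in part-set stems. GLC1 (PH02Gene49193) had 2.4, 2.89 and 0.183 FPKM in rhizomes, 2.89, 3.89 and 3.44 FPKM in leaves, 18.6, 40.3 and 30.4 FPKM in branches and 9.32, 6.76 and 21.7 FPKM in part-set stems. It was lower in rhizomes (-2.82 ± 0.72, adjusted p = 0.0147, and 0.044 without rhizome library 1) and not called in leaves (adjusted p = 0.0612).

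TLP1 (PH02Gene28314) and CRK6 (PH02Gene26703) were both lower in leaves than in part-set stems. TLP1 had 8.03, 8.43 and 7.52 FPKM in rhizomes, 0.064, 0 and 0.06 FPKM in leaves, 2.11, 39.1 and 30.3 FPKM in branches and 6.75, 14.3 and 46.8 FPKM in part-set stems. It had 2 counts in leaves (a counted ratio of 570.0 with an exact 95% interval of 158 to 4715, edgeR adjusted p = 0.000782), and rhizomes, which overlapped with part-set stems, were not called (adjusted p = 0.194). Branch and part-set stem libraries varied widely. CRK6 had 1.01, 3.96 and 0.2 FPKM in rhizomes, 0.395, 2.11 and 0.629 FPKM in leaves, 24.6, 20.2 and 19.2 FPKM in branches and 17.7, 33.6 and 17.4 FPKM in part-set stems. This gene was lower in leaves (-4.33 ± 0.87, adjusted p = 0.00272) and in rhizomes (-3.71 ± 0.83, adjusted p = 0.00783) than in part-set stems. The rhizome call had an adjusted p of 0.0391 without rhizome library 1 and ended in a fit of the 6 libraries alone (adjusted p = 0.0533), as did those of PH02Gene33143 (0.0525) and PH02Gene49193 (0.0929). The Bowman-Birk gene MSTRG.20997 had 15.9, 28.6 and 6.79 FPKM in rhizomes, 5.12, 4.38 and 4.75 FPKM in leaves, 38.9, 24.4 and 71.2 FPKM in branches and 38.7, 48.5 and 67.7 FPKM in part-set stems. Every leaf was below every part-set stem (log2 change -3.35 ± 0.56, adjusted p = 0.000955). WIP1 (PH02Gene04151) was at 0 in all leaves, at least 11.8-fold below the 1.67, 0.707 and 2.17 FPKM of part-set stems (adjusted p = 0.0167).

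**Figure D5:**
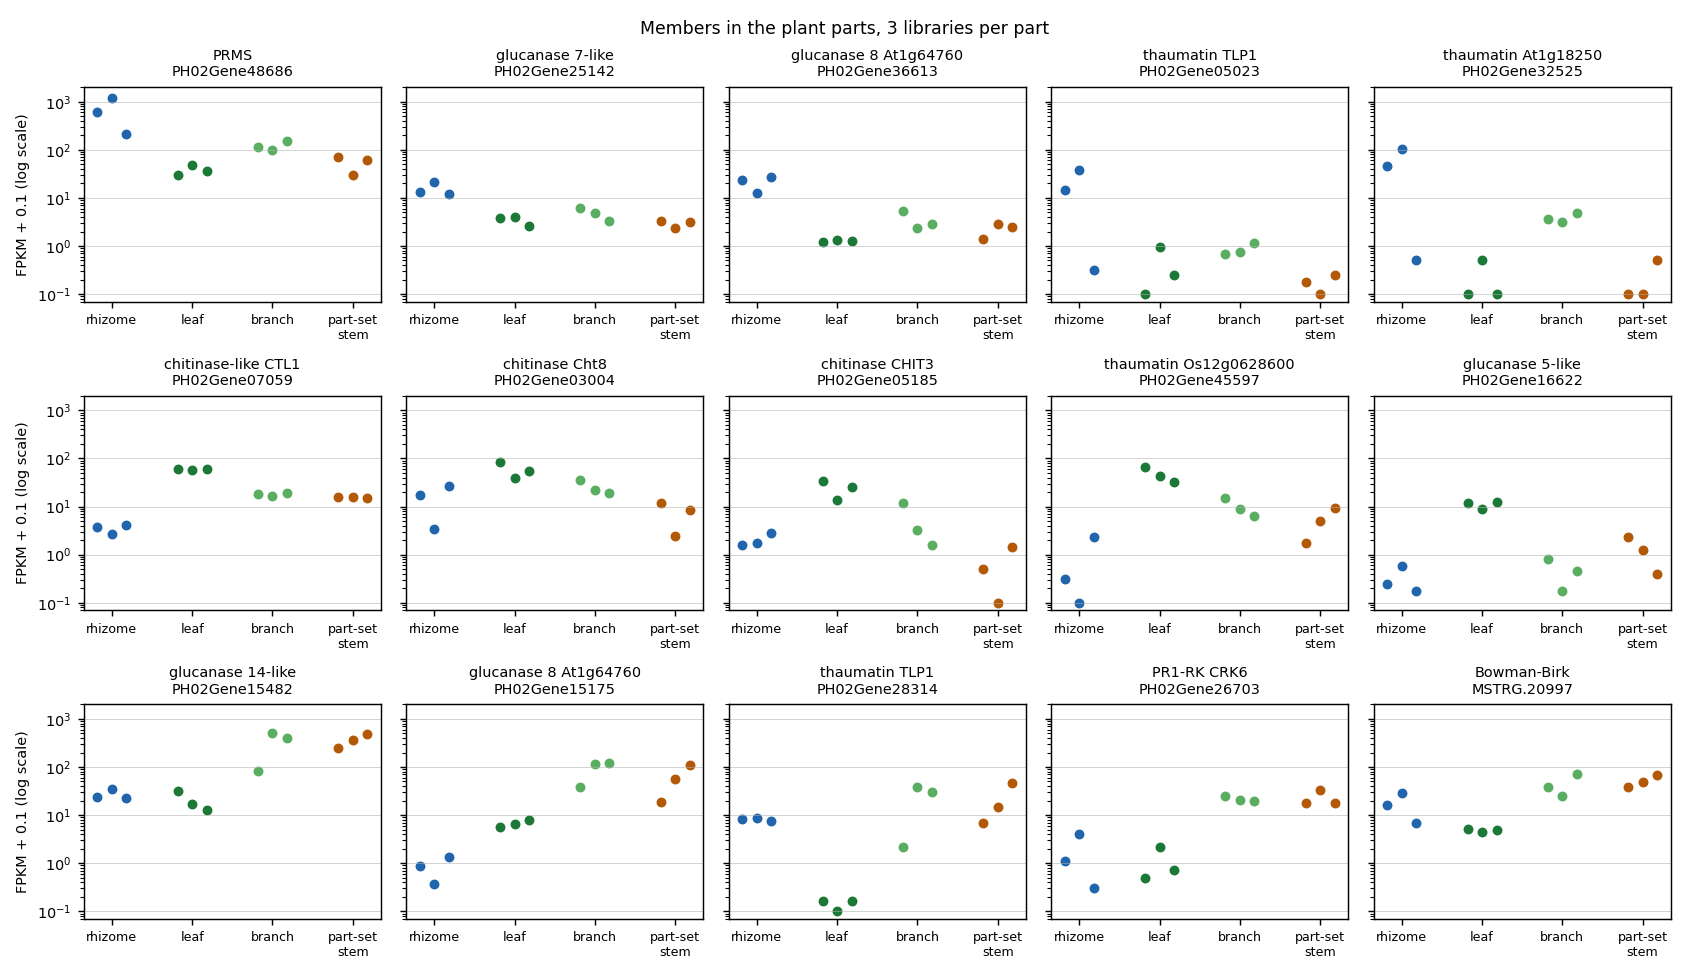
FPKM + 0.1 on a log scale for 15 members in each library of rhizome, leaf, branch and part-set stem; each point is a library. The upper row holds genes that were high in rhizomes, the middle row genes that were high in leaves, and the lower row genes that were high in part-set stems and branches.

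Some genes with the same symbol were found in different places. Others went together, such as the Cht7 genes named above in the growth stages and the At4g34480 genes in rhizomes against leaves. Genes that share a symbol were not tallied, and those below were picked for their contrast. Of the At1g64760 genes, PH02Gene15175 had 0.264 to 1.23 FPKM in rhizomes and 19 to 109 FPKM in part-set stems, whereas PH02Gene36613 had 12.6 to 26.6 and 1.28 to 2.76 FPKM there. Of the CTL1 genes, PH02Gene07059 was higher in leaves and PH02Gene04647 lower, at 3.12, 6.75 and 4.45 FPKM in leaves, against 34.1, 18.5 and 37 FPKM in part-set stems (log2 change -2.57 ± 0.59, adjusted p = 0.00608). Among TLP1 genes, PH02Gene28314 had 73.9 to 81.5 FPKM in 0.5-year stems and 0.159 to 1.15 FPKM in shoots, against 0 to 0.268 and 9.97 to 29.2 FPKM for PH02Gene48120. Whether reads were exchanged between such copies was not tested.

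Other genes of defence were counted from their descriptions. Of all genes 26.5% were called higher and 27.3% lower in the 0.5-year stem against the shoot, and 30.2% and 35.0% in the 3-year stem. Beside these shares, 16 of 26 tested genes of immune signalling were higher and 3 lower at 0.5 years, and 17 and 5 at 3 years. By their descriptions 13 of them were NPR, EDS1, PAD4 or SGT1 genes, among which NPR1 acts in the salicylic acid response that switches on PR1 in Arabidopsis: 8 were higher and 1 lower at 0.5 years, and 11 and 0 at 3 years. Another 12 were SERK or BAK1 receptor kinases, co-receptors that also act in growth (8 and 1 at 0.5 years, 6 and 4 at 3 years), and 1 was a gene like SNC4. This split was made after the counts were seen. Of 9 genes listed under chitin perception, 5 were higher and 3 lower in the 0.5-year stem against the shoot. Most are described as receptors that sense fungal walls or as LYK proteins, and PH02Gene00967 and PH02Gene22713 only as peptidoglycan-binding LysM domain proteins. Respiratory burst oxidases make reactive oxygen at the cell surface. Of 14 tested, 0 were higher and 9 lower at 1 year against 0.5 years, beside 14.4% and 16.0% of all genes. Against the shoot 3 of them were higher and 5 lower at 0.5 years, and 3 and 10 at 3 years. In rhizomes 7 of 13 were higher and 0 lower than in leaves, beside 24.7% and 21.1% of all genes. Without rhizome library 1 these counts were the same, beside 20.6% and 16.5%. Of 23 callose synthases, which make the glucan that glucanases cut, 10 were higher and 1 lower in rhizomes than in part-set stems (9 and 1 without rhizome library 1). In the growth stages 27 were tested. Against the shoot 2 of these were higher and 8 lower at 0.5 years, and 8 and 12 at 3 years. Of 24 germin-like and oxalate oxidase genes, 0 were higher and 13 lower in the 0.5-year stem against the shoot. Defensins and thionins (1 higher and 3 lower of 4), lipid-transfer genes (2 and 5 of 16) and barwin or wound-induced genes (3 and 1 of 4) were few in that comparison. Counts against the shoot are read beside the shares of all genes at the head of this paragraph. No list was tested as a set.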

How the data were processed

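Bulk RNA sequencing of 27 bamboo libraries was used as 2 tables, 1 of growth stages and 1 of plant parts. The authors deposited an expected count and an FPKM value per gene and library, per the file headers, with a symbol, a description and a transcription factor family. HISAT2, StringTie 1.3.1 and RSEM are named in the submitters' processing notes, without role or order, with the genome build not given in the sources used here. Of the expected counts above 0, 58.7% were whole in the growth stages and 64.5% in the plant parts.

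Expected counts were rounded and tested with edgeR 4.0.16 in R 4.3.3 (TMM, quasi-likelihood test, two-sided). All groups of a set shared 1 fit and 1 estimate of the spread, with no replicate block. A gene was tested where 3 or more libraries of a set had an FPKM of at least 1, and each p was adjusted by Benjamini-Hochberg over all of them. The adjusted p-values printed are edgeR's unless DESeq2 1.42.0 or limma 3.58.1 is named. The steps were tested on simulated data. Alternatives were RLE scaling, DESeq2, limma on log2(FPKM + 1) or log2(FPKM + 0.1), no filter, a mean FPKM of 5 or more, the 6 libraries compared alone, a replicate block, each library left out, and the 0.5-year libraries summed to 1 sample.

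Members, families, pathway lists and tissue markers were defined by words in the descriptions, and they were chosen with earlier results of these data known. The named genes are those that meet any of 3 rules. The first is by size of change in log2(FPKM + 1): in each comparison it takes the top 5 called members in each direction (3 between stem ages that follow each other), given a mean of at least 10 FPKM in one group and libraries that do not overlap. The second takes the 3 most abundant members of each family in each set, and the last the tested member of each family with the largest range of group means. Having 3 libraries per group limits the precision.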

Additional observations from a re-analysis of the deposited data

How the results depend on the processing

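With a mean of 5 FPKM or more required, 48 members were tested in the growth stages and 43 in the plant parts, instead of 121 and 104. Then 36, 24, 1, 41, 18, 16 and 23 were called in the 0.5-year stem against the shoot, 1 against 0.5 years, 2 against 1 year, the 3-year stem against the shoot, leaf against part-set stem, rhizome against part-set stem and rhizome against leaf, instead of 83, 47, 3, 89, 37, 32 and 53. Directions shifted too. In the 0.5-year stem against the shoot 25 members were higher and 11 lower, beside 4862 and 5176 of 16191 genes. The 3-year stem had 25 higher and 16 lower, beside 5559 and 6149. In rhizome against part-set stem 5 were higher and 11 lower, beside 3037 and 3548 of 17593 genes. Summing the 0.5-year libraries to 1 sample gave 18 instead of 47 at 1 against 0.5 years and ended 8 calls of named members there (adjusted p = 0.0543 to 0.188). At 2 years against 1 year DESeq2 called 7 members, limma on log2(FPKM + 1) 5 and the 6 libraries alone 0. In branch against part-set stem DESeq2 called 12, limma 7 and 5 (with 1 and 0.1 FPKM added) and the 6 libraries alone 4, instead of 0. The 6 libraries alone gave 13 instead of 32 in rhizome against part-set stem. The cause was not tested.

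With 1 library left out, counts of members called ran from 75 to 89 in the 0.5-year stem against the shoot, 35 to 40 at 1 against 0.5 years, 0 to 5 at 2 against 1 year, 86 to 97 in the 3-year stem against the shoot, 29 to 39 in leaf, 22 to 41 in rhizome (both against part-set stems) and 43 to 53 in rhizome against leaf, and stayed at 0 in the others. Counts of all genes moved too. At 2 against 1 year 13 of 29538 genes were higher and 2 lower without 2-year library 3, and 602 and 445 without library 2. In rhizome against part-set stem 2721 of 29630 genes were higher and 2743 lower without rhizome library 1, and 5187 and 5048 without library 3. Replicate numbers did not pair libraries: deviations of same-numbered libraries correlated at -0.145 to 0.139 in the growth stages and -0.148 to 0.155 in the plant parts. With the replicate block the counts were 83, 47, 2, 0 and 92 in the growth stages and 34, 0, 27 and 50 in leaf, branch, rhizome against part-set stem and rhizome against leaf. For rhizome against part-set stem these were 13 higher and 14 lower, beside 3402 and 3842 of 29630 genes. Of 102 pairs of a named member and a comparison, 77 were called under every alternative that tested the gene. Named members with a set mean under 5 FPKM dropped out of the stricter filter, which was not counted as a loss. Over 1446 alternative values 70 lost the call and 0 changed sign. Losses not given beside their values were these. MSTRG.17699 lost its call in the 3-year stem against the shoot with limma, and PH02Gene48120 its call in the 0.5-year stem against the shoot with DESeq2 (adjusted p = 0.137). With the 0.5-year libraries summed, CRK6 (PH02Gene26703, 0.0934) and PH02Gene28313 (0.129) lost theirs at 1 against 0.5 years. In rhizome against part-set stem the Bowman-Birk gene MSTRG.20997, PH02Gene16622 and PH02Gene45597 lost the call without rhizome library 1 (adjusted p = 0.111, 0.148 and 0.133) and under other alternatives, and GLC1 (PH02Gene49193) without part-set stem library 3 (0.0518). In rhizome against leaf MSTRG.20997 and WIP1 (PH02Gene04151) lost it under several alternatives (0.0566 to 0.101 and 0.0518 to 0.103), and PH02Gene05023 with the 6 libraries alone (0.0538). Members at a few counts have wide intervals at this depth.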
